A study of Mus musculus with 11 samples.

Results

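The V1 sector is the cytosolic, ATP-splitting part of the vacuolar proton pump, and 8 broadly expressed genes of its subunits are described here across macrophages sorted from mouse mammary tumours. The 8 genes (Atp6v1a, Atp6v1b2, Atp6v1c1, Atp6v1d, Atp6v1e1, Atp6v1f, Atp6v1g1 and Atp6v1h) were taken by symbol from the deposited expression table, in which they are 8 of 17475 genes. All 8 were measured. The rule names symbols only, but it was set with earlier results of these data known. The RNA-seq experiment holds 11 libraries from 6 female mice, backcrossed to B6. All of them carried PyMT, the polyoma middle T antigen, whose expression makes the mammary gland form tumours. The MYC mice were S100a8-cre Rosa26-LSL-MYC PyMT, in which Cre under the S100a8 promoter, active in the neutrophil and monocyte lineage, switches on a MYC transgene. The control mice were PyMT, and their labels name no further allele. Every mouse, MYC or control, was lethally irradiated at 7 weeks of age, received a graft of 3000000 wild-type B6 marrow cells, and ate a low protein diet for 6 weeks from 2 weeks later. Blood cells that grew from the graft therefore lacked the transgene in both genotypes. The cells were living CD45+ cells without SiglecF, Ly6G, B220 or Ly6C. Tumour-associated macrophages (TAMs) were then gated as F4/80+ Vcam+, and mammary tissue macrophages (MTMs) as F4/80+ Vcam- FOLR2+. There were 3 MYC TAM libraries (mice 2, 4 and 6), 3 control TAM libraries (mice 1, 3 and 5), 2 MYC MTM libraries (mice 2 and 4) and 3 control MTM libraries (mice 1, 3 and 5).

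The vacuolar ATPase pumps protons into lysosomes, phagosomes and endosomes. V1 burns ATP in a ring of alternating A and B subunits, the rotation passes down a central shaft of D and F to the membrane sector V0, and outer stalks of E and G, held by the C and H subunits, keep the ring from turning along. In macrophages the pump acidifies the compartments that digest engulfed material, and together with the Ragulator complex it takes part in amino acid sensing by mTORC1 at the lysosome. V1 can come off V0 and go back on, so the amount of V1 RNA is not the amount of working pump.

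The 8 genes lie apart from each other in the genome (GRCm38, GENCODE M21). Atp6v1a spans chr16:44085402-44139705 on the minus strand, Atp6v1b2 chr8:69088646-69113711 on the plus strand, Atp6v1c1 chr15:38661933-38692446 on the plus strand and Atp6v1d chr12:78840725-78861638 on the minus strand. Atp6v1e1 and Atp6v1f share a chromosome, at chr6:120794305-120822793 on the minus strand and chr6:29467718-29470512 on the plus strand. Atp6v1g1 spans chr4:63544772-63550750 and Atp6v1h chr1:5070018-5162529, both on the plus strand. All are protein coding.

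Promoter windows from RefSeq (GRCm38.p6), each 250 bases before to 50 bases after the annotated start, were matched for 4 of the 8 members. Atp6v1b2, Atp6v1c1, Atp6v1g1 and Atp6v1h had no window, so the windows shown are those available. They belong to Atp6v1a, Atp6v1e1 and Atp6v1f, which were higher in MYC TAMs, as described below, and to Atp6v1d, the member that moved least. Each is written 5′ to 3′ in the direction of the gene, from chr16:44139210-44139509 (minus strand), chr6:120822649-120822948 (minus strand), chr6:29467533-29467832 (plus strand) and chr12:78861589-78861888 (minus strand), in this order. Capitals mark matches, on either strand, to 5 motifs: the E-box CACGTG, which MYC-MAX and MiT/TFE factors can bind, its extended form TCACGTGA, the GC box GGGCGG, the ETS core CCGGAA and the CCAAT box.

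Atp6v1a: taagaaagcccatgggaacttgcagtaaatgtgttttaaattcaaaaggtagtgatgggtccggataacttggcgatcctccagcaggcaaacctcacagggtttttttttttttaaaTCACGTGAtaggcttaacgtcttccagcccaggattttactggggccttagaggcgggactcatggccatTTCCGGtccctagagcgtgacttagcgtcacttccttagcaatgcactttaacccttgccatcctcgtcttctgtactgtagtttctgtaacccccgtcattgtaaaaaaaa

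Atp6v1e1: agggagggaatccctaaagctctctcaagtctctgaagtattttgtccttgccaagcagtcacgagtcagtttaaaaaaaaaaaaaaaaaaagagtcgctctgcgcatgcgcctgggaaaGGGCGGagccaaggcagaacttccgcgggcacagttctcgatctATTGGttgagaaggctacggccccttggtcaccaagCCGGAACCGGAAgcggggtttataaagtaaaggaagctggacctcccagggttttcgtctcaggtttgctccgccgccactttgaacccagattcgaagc

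Atp6v1f: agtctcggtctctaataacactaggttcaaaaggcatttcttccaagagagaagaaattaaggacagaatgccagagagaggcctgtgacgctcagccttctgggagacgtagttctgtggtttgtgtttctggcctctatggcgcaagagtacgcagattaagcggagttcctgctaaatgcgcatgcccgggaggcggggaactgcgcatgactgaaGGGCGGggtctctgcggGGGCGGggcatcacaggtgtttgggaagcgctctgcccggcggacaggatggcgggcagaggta

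Atp6v1d: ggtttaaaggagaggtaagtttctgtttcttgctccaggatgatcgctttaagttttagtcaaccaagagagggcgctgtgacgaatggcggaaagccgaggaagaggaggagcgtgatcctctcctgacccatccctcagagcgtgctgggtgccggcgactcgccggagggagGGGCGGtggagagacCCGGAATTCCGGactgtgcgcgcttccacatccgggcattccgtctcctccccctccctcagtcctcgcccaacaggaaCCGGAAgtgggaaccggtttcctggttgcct

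With the start base as position 1 and no position 0, the Atp6v1a window held TCACGTGA from -132, which contains the CACGTG at -131, and a CCGGAA on the opposite strand at -62. The Atp6v1e1 window held GGGCGG at -130, a CCAAT on the opposite strand at -86, and adjoining CCGGAA matches at -50 and -44. The Atp6v1f window held GGGCGG at -31 and at -14. The Atp6v1d window held GGGCGG at -75 and CCGGAA at -60, at -54 on the opposite strand and at 20. Among all 32851 RefSeq windows of this length, CACGTG was found in 7.15% (1 of the 4 members), TCACGTGA in 0.974% (1 of 4), GGGCGG in 35.7% (3 of 4), CCGGAA in 14.9% (3 of 4) and CCAAT in 37.4% (1 of 4). Of 15 matched V0 and accessory genes, 5 held CACGTG, 3 TCACGTGA, 12 GGGCGG, 5 CCGGAA and 7 CCAAT. These are counts of genes, whereas the percentages are of windows. The RefSeq start of Atp6v1a lies 446 bases downstream of the GENCODE end used above, against 95 bases for Atp6v1e1, 65 for Atp6v1f and 0 for Atp6v1d. A match describes these letters only and is no evidence of binding.

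Levels are the deposited log2 values, which behave as the log2 of 1.00 plus reads per gene length and per library depth, so they can be compared between genes. Estimated depth was 32.9 to 43.6 M reads (megareads) in genes per library, and each member had 2285 to 125776 reads in every library, so counting error was small beside the differences between mice. RNA integrity numbers ran from 3.3 to 9.6 per the labels, which do not tie them to libraries. Genes without a read numbered 581 in the MYC TAM library of mouse 4, and the remaining 10 libraries each had 2072 to 3522. All 12 macrophage markers were measured, with mean log2 levels of 7.79 to 8.28 in MYC TAMs, 7.99 to 8.87 in control TAMs, 8.84 to 8.91 in MYC MTMs and 8.66 to 8.93 in control MTMs. The lowest control TAM mean, 7.99 in mouse 5, includes Aif1 at 0.24, which was at 8.79 and 8.68 in control TAM mice 1 and 3. The overlap of the TAM means therefore rests on 1 gene in 1 library. Their sums were higher in MYC TAMs than in control TAMs (18541 to 29943 in MYC TAMs, 13136 to 17128 in control TAMs, 26200 to 26740 in MYC MTMs and 26076 to 30090 in control MTMs), with Lyz2 the most abundant marker at 13.7 to 14.6 in MYC TAMs and 12.4 to 13.0 in control TAMs. Folr2, the gene of the MTM gate, was at 1.07 to 3.62 in MYC TAMs, 0.96 to 1.77 in control TAMs, 8.07 to 8.45 in MYC MTMs and 7.67 to 8.05 in control MTMs. Emr1, the gene of F4/80 and of both gates, was lower in MYC TAMs (7.50 to 8.37) than in control TAMs (9.40 to 9.93; -1.81 ± 0.26, adjusted p = 0.00148) and MYC MTMs (9.88 to 9.89; -2.07 ± 0.29, adjusted p = 0.00428), and was at 9.54 to 9.96 in control MTMs. Vcam1, the gene of the TAM gate, went against the label in the MYC mice. It was at 0.96 to 2.82 in MYC TAMs, a range that spans the 2.31 to 2.32 of MYC MTMs, while control TAMs were at 7.64 to 8.60 and control MTMs at 5.25 to 6.86. The libraries labelled MYC TAM therefore carried little RNA of the gene of their own gate, which bears on every comparison with them. Control MTMs, though gated as Vcam-, carried more Vcam1 RNA than any MYC TAM library, which bears on the comparisons with control MTMs as well. The mouse Myc gene was at 1.78 to 2.16 in MYC TAMs and 2.66 to 3.18 in control TAMs, and at 2.87 to 3.02 in MYC MTMs and 2.53 to 2.75 in control MTMs, and the transgene was not measured apart from it.

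The first comparison asks whether V1 RNA differs between TAMs of MYC and control tumours, and most of the sector was higher in MYC TAMs. Of the 8 subunits 6 rose and none fell (limma on all 17475 genes, Benjamini-Hochberg adjusted p below 0.05), where 15.9% of all genes passed, 3.89% higher and 12% lower. Higher genes were 24.5% of all called genes as deposited, 41.6% after quantile scaling and 69.9% after median centring of the libraries, which moved the median of all genes by over 0.1 to 0.19. Of the 8 subunits, 4 rose after quantile scaling and 7 after median centring, and none fell. Of all genes 2778 were called as deposited, 2660 after quantile scaling and 5029 after median centring, so the 7 came with many more calls throughout. The 6 were the collar subunit C1, the outer stalk subunits G1 and E1, the catalytic A, the shaft subunit F and B2. The median difference of the 8 was 0.97 on the log2 scale, against -0.02 over all genes. In bulk RNA of this kind, a changed share of cells that express a gene and a changed amount of RNA per cell cannot be told apart.

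In the head of the pump, Atp6v1a, which encodes the subunit that splits ATP, was at 6.81, 6.87 and 7.27 in MYC TAMs (mice 2, 4 and 6) and at 5.44, 5.60 and 6.00 in control TAMs (mice 1, 3 and 5). Every MYC library lay above every control library, and the difference was 1.31 ± 0.20 (SE), or 2.47-fold (adjusted p = 0.00245). Atp6v1b2 encodes the B subunit that binds nucleotide at the interface without splitting it. It had levels of 6.96, 7.40 and 7.57 in MYC TAMs and 6.62, 6.19 and 6.46 in control TAMs. Its groups did not overlap either, with a difference of 0.88 ± 0.25 (1.84-fold, adjusted p = 0.0422), the highest adjusted p of the 6.

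The central shaft was split. Atp6v1f, whose product sits with D at the core of the rotor, was at 7.60, 7.25 and 7.04 in MYC TAMs and at 6.37, 6.33 and 6.48 in control TAMs. That is a difference of 0.91 ± 0.16 (1.88-fold, adjusted p = 0.00544) without overlap. Atp6v1d, which encodes the long coiled rotor shaft itself, had levels of 7.52, 7.80 and 8.27 in MYC TAMs and 7.36, 7.57 and 7.75 in control TAMs. These groups overlapped, and the difference of 0.31 ± 0.21 did not pass (adjusted p = 0.395).

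The collar and 1 of the stalk subunits had the largest differences of the 8. Atp6v1c1 encodes the C subunit that joins the stalks to the membrane sector and is shed when the pump comes apart. It was at 9.16, 9.41 and 9.47 in MYC TAMs and at 7.41, 7.53 and 7.85 in control TAMs, a difference of 1.75 ± 0.17 (3.37-fold, adjusted p = 0.000178). The gap between the groups was wider than the whole range within either of them. Atp6v1g1, which encodes a stalk helix, had levels of 8.56, 8.41 and 7.80 in MYC TAMs and 6.75, 6.80 and 6.86 in control TAMs (1.45 ± 0.20, 2.74-fold, adjusted p = 0.00133). Its partner in the stalk, Atp6v1e1, had levels of 8.95, 8.65 and 9.62 in MYC TAMs and 7.71, 8.27 and 8.15 in control TAMs (1.03 ± 0.27, 2.04-fold, adjusted p = 0.0307). For Atp6v1g1 the MYC TAMs varied more between mice than the control TAMs (SD 0.41 and 0.05).

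The regulatory subunit H, which bridges stalk and head and in yeast holds back ATP use by free V1, missed the threshold. Atp6v1h was at 7.68, 7.79 and 8.32 in MYC TAMs and at 7.14, 7.36 and 7.43 in control TAMs, without overlap (0.62 ± 0.20, adjusted p = 0.0629). In all, 7 of the 8 subunits lay wholly higher in MYC TAMs, Atp6v1d being the exception, where 8.03% of all genes lay wholly higher and 22.1% wholly lower.

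**Figure D1:**
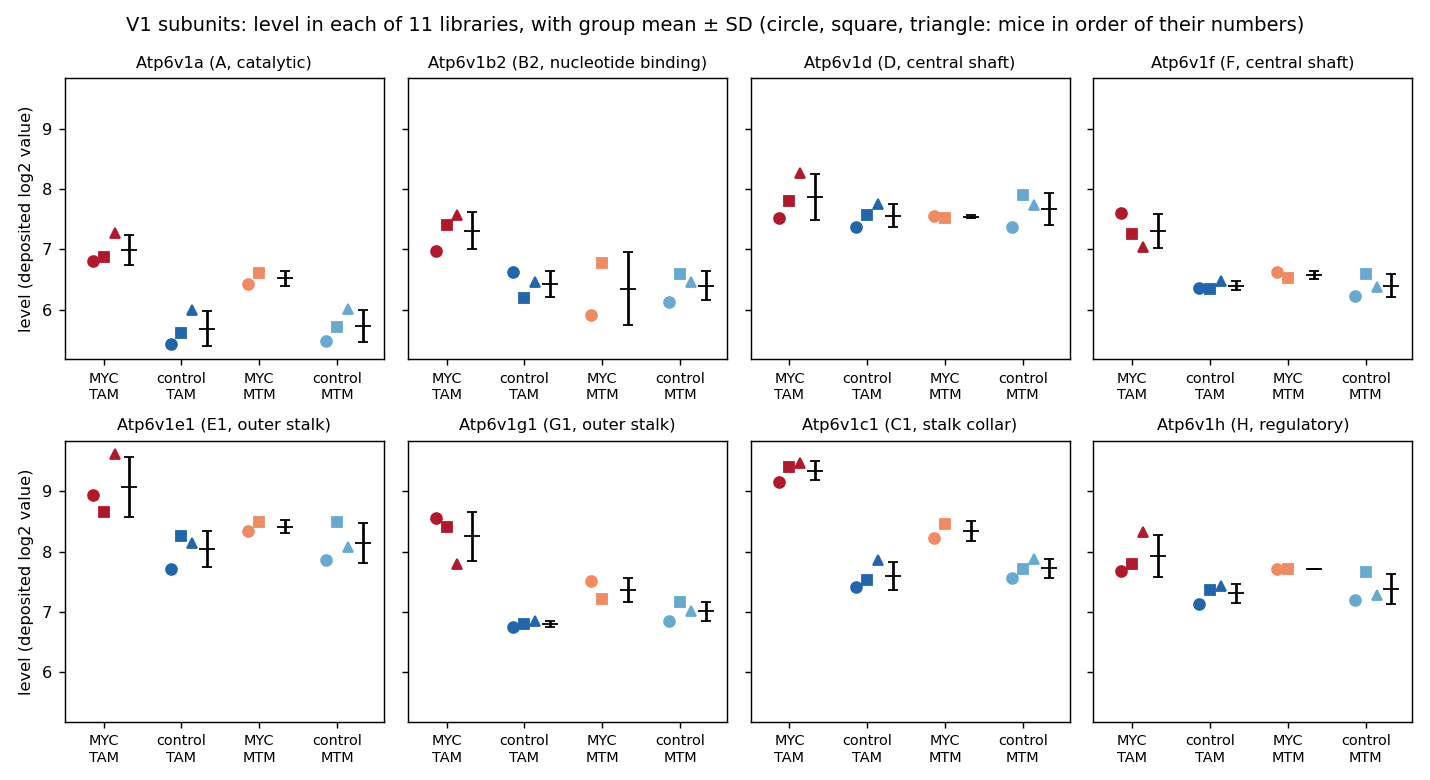
Deposited log2 level (vertical axis) of the 8 V1 subunits in each of the 11 libraries, by group (horizontal axis), with the group mean ± SD as a black bar. MYC TAMs lie wholly above control TAMs in 7 panels, most clearly for Atp6v1c1 (9.16 to 9.47 against 7.41 to 7.85), and overlap them for Atp6v1d.

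Within the MYC TAMs the subunits did not share 1 order of mice. Atp6v1f and Atp6v1g1 were highest in mouse 2 and lowest in mouse 6, whereas the other 6 subunits were highest in mouse 6. Atp6v1f and Atp6v1g1 also have the shortest exon lengths, 1063 and 1135 bases, against 4110 to 9746 bases for the others. A part of RNA quality in this was not tested.

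The calls were not equally firm. When each library was left out in turn, Atp6v1a, Atp6v1c1, Atp6v1f and Atp6v1g1 passed every time. Atp6v1b2 lost its call without MYC TAM mouse 4 or 6, any control TAM library or any control MTM library (adjusted p up to 0.152), and Atp6v1e1 without MYC TAM mouse 2 or 6, any control TAM library or either MYC MTM library (up to 0.0968), while Atp6v1h passed without control MTM mouse 3 (0.0496). Transcripts of other cells moved with the genotype. In MYC TAMs 3.89% of all genes were called higher and 12% lower, beside which the marker counts are to be read. Of 16 measured epithelial markers 10 were lower in MYC TAMs, with summed levels of 65.7 to 441 in MYC TAMs and 806 to 1647 in control TAMs, and none was at 0 in a whole group. T and NK cell markers (7 of 11 lower) summed to 3.02 to 8.03 in MYC TAMs, where Cd3e had no read, and 58.6 to 126 in control TAMs. B and plasma cell markers (3 of 6 lower) summed to 2.36 to 8.17 in MYC TAMs and 51.3 to 65.9 in control TAMs. Dendritic cell markers (3 of 8 lower) summed to 1.13 to 4.45 in MYC TAMs, where Ccr7 had no read, and 16.8 to 19.1 in control TAMs. Of 6 measured neutrophil markers 3 were higher in MYC TAMs, as most V1 subunits were, and 1 was lower. The higher ones were Mmp8 (2.02 ± 0.21), Cxcr2 (0.16 ± 0.05) and S100a8 (2.00 ± 0.57), whose promoter drives the Cre and which was at 4.52 to 6.18 in MYC TAMs and 2.52 to 3.82 in control TAMs. The lower one was Ltf (-4.47 ± 0.80). The list summed to 38.3 to 99.4 in MYC TAMs and 125 to 233 in control TAMs, where Cxcr2 had no read. In control TAMs Ltf was at 6.92 to 7.78, far above the next highest marker, S100a8, so the sum there follows Ltf. Cxcr2 was at 0.28 or less in every library. The part of neutrophils, lymphocytes or dendritic cells in the V1 values was not tested. Of the 12 macrophage markers 2 rose and 6 fell in MYC TAMs, among them Cd68 (1.95) upward and Csf1r (-2.57) downward. When the mean epithelial marker level entered the model as a covariate, 903 of all genes passed, against 2778 without it. Of the subunits 3 passed, namely Atp6v1c1 (1.50), Atp6v1f (1.38) and Atp6v1g1 (2.09). Atp6v1a (0.97, adjusted p = 0.169), Atp6v1e1 (0.92, adjusted p = 0.392) and Atp6v1b2 (0.43, adjusted p = 0.766) did not. The epithelial level did not overlap between MYC TAMs (1.60 to 3.56) and control TAMs (4.36 to 5.33), so this fit cannot fully tell it apart from the genotype.

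The make-up of V1 RNA is described here beside its amount. The summed level of the 8 subunits was 2257, 2296 and 2820 in MYC TAMs, 1009, 1153 and 1251 in control TAMs, 1441 and 1549 in MYC MTMs and 1032, 1393 and 1232 in control MTMs. Of the summed level of all genes this was 0.482% to 0.704% in MYC TAMs, 0.235% to 0.303% in control TAMs, 0.356% to 0.384% in MYC MTMs and 0.250% to 0.322% in control MTMs. On both scales each MYC TAM library held more than every other library. Atp6v1c1 made up 25.2% to 29.5% of the sum in MYC TAMs, 15.9% to 18.4% in control TAMs, 20.7% to 22.7% in MYC MTMs and 14.9% to 19.1% in control MTMs. The share of Atp6v1d went the other way, with 8.10% to 10.9% in MYC TAMs, 16.2% to 17.1% in control TAMs, 11.8% to 13.0% in MYC MTMs and 16.0% to 17.2% in control MTMs. Atp6v1h likewise held 9.03% to 11.3% in MYC TAMs and 13.7% to 14.2% in control TAMs. A smaller share is not a lower level. Between MYC and control TAMs the levels of Atp6v1d and Atp6v1h differed by 0.31 and 0.62 upward, though neither passed. The shares are of RNA only and were not tested.

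**Figure D2:**
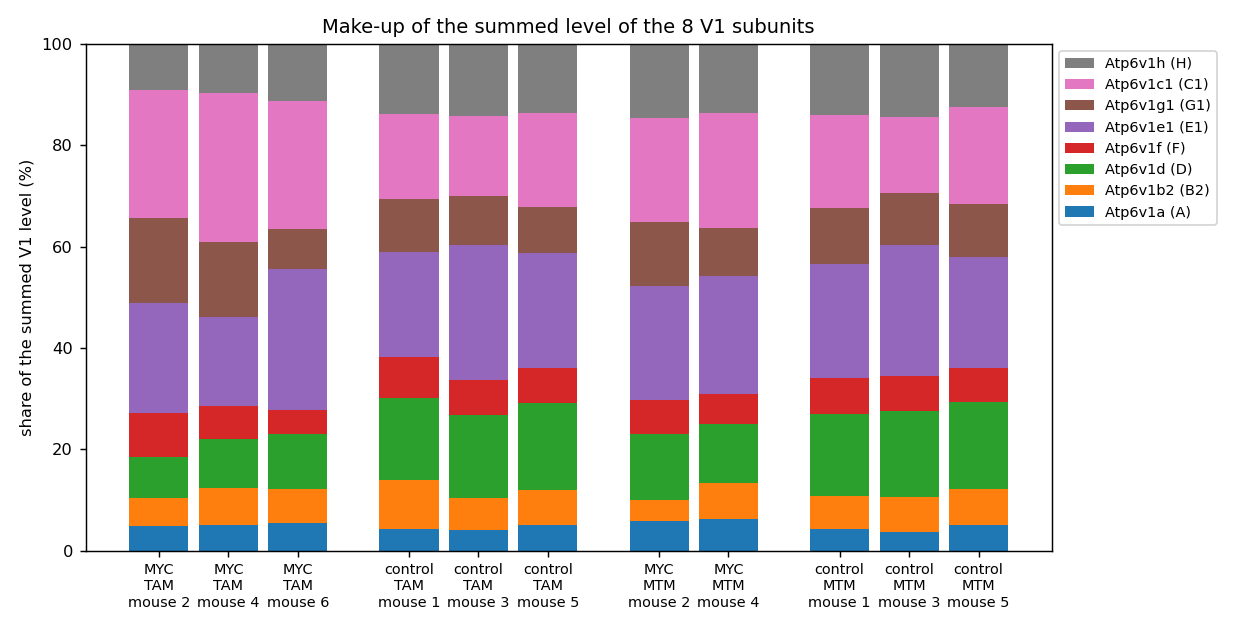
Share of the summed V1 level (vertical axis, percent) held by each of the 8 subunits in each library (horizontal axis). The Atp6v1c1 band is widest in the MYC TAM libraries (25.2% to 29.5%) and the Atp6v1d band is narrowest there (8.10% to 10.9%).

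By group mean, the order of the subunits was C1, E1, G1, H, D, B2, F and A in MYC TAMs and E1, C1, D, H, G1, B2, F and A in control TAMs. In MYC MTMs it was E1, C1, H, D, G1, F, A and B2, and in control MTMs E1, C1, D, H, G1, F, B2 and A. Several neighbours changed places between libraries of 1 group, so their order is not fixed. In MYC TAMs these were C1 and E1, G1 and H, H and D, B2 and F, and F and A, and in control TAMs C1 and D, and B2 and F. In MYC MTMs they were F and A, and A and B2, and in control MTMs C1 and D, and F and B2. The subunit with the highest level was E1 in all 3 control TAM libraries, in both MYC MTM libraries and in all 3 control MTM libraries.

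Across the 4 groups, MYC TAMs had the highest mean for each of the 8 subunits. For Atp6v1a, Atp6v1c1 and Atp6v1g1 the order was MYC TAM, MYC MTM, control MTM and control TAM, with no overlap between neighbours except between the control groups. Atp6v1f and Atp6v1e1 had the same order, but there MYC MTMs overlapped control MTMs as well. For Atp6v1h the MYC TAM and MYC MTM libraries overlapped, and both MYC MTM libraries lay above all control MTM libraries. Atp6v1b2 had MYC TAMs apart and the other 3 groups overlapping, and Atp6v1d had no group apart.

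Mammals have further isoforms of some V1 subunits in tissues such as kidney and epididymis. Of 4 measured restricted isoforms 2 fell in MYC TAMs and none rose (median -0.91), where 12% of all genes fell and 3.89% rose. Atp6v1b1, the B subunit of acid-secreting epithelial cells, had levels of 0.96, 0.69 and 0.03 in MYC TAMs and 3.34, 4.86 and 3.90 in control TAMs (-3.48 ± 0.48, adjusted p = 0.00130). Atp6v1c2, a C subunit of epithelia, had levels of 2.24, 2.36 and 0.74 in MYC TAMs and 3.42, 3.84 and 3.11 in control TAMs (-1.67 ± 0.48, adjusted p = 0.0414). The groups did not overlap for either gene. The lowest of these values stands for about 2 reads of Atp6v1b1 in MYC TAM mouse 6, against 65 and 129 in the other MYC TAM libraries and 1148 to 3741 in control TAMs. Atp6v1b1 was 0.0102% to 0.752% of the B level (Atp6v1b1 plus Atp6v1b2) in MYC TAMs, 8.55% to 28.0% in control TAMs, 1.54% to 2.13% in MYC MTMs and 3.99% to 10.2% in control MTMs. Atp6v1c2 was 0.0948% to 0.645% of the C level in MYC TAMs, 3.20% to 6.77% in control TAMs, 0.397% to 0.951% in MYC MTMs and 1.83% to 4.86% in control MTMs. On average epithelial markers moved the same way as these isoforms, with mean log2 levels of 3.56, 2.54 and 1.60 in MYC TAMs (mice 2, 4 and 6) and 4.36, 5.33 and 4.39 in control TAMs (mice 1, 3 and 5). Of the 16 markers 2 went the other way without passing. These were Krt14, with group means of 4.08 in MYC TAMs and 2.92 in control TAMs, and Krt5, with 1.79 and 1.26. The library highest in Atp6v1b1, control TAM mouse 3, was also the highest in epithelial markers, and MYC TAM mouse 6 was the lowest in both. Whether the isoform RNA came from epithelial cells was not tested. Atp6v1g2 and Atp6v1g3 were at 0.52 or less in every library. How reads shared by similar isoforms were counted is not given in the sources used here.

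**Figure D3:**
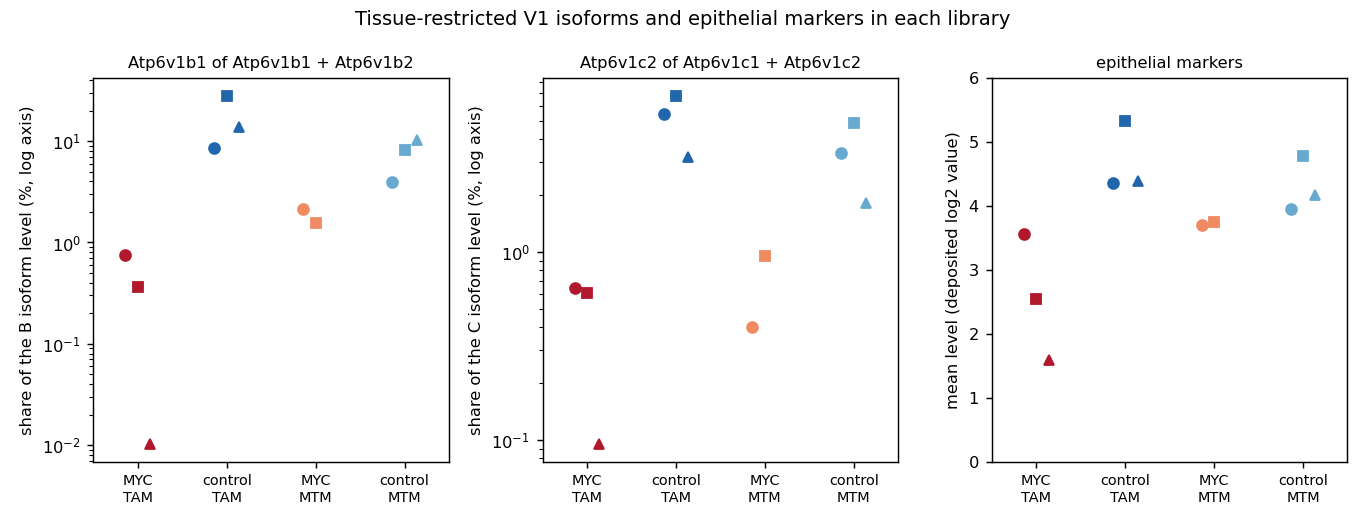
Share of Atp6v1b1 in the B level and of Atp6v1c2 in the C level (left and middle, percent, log axes), and the mean deposited log2 level of 16 epithelial markers (right), in each library by group. All 3 measures are lower in MYC TAMs than in control TAMs, with Atp6v1b1 at 0.0102% to 0.752% against 8.55% to 28.0%.

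Within MYC tumours, TAMs were set against MTMs to ask whether the sector differs between the sorted populations. All 8 differences were positive, with a median of 0.69 against -0.01 over all genes, but only Atp6v1c1 passed, where 4.49% of all genes did, 0.664% higher and 3.82% lower. Higher genes were 14.8% of the calls, 29.9% after quantile scaling and 35.8% after median centring, and 2 subunits passed under either scaling. Over the 21 alternatives Atp6v1c1 passed in 16, Atp6v1g1 in 9 and Atp6v1f in 7, so the subunits called were not always the same. Of all genes 784 passed as deposited, 571 after quantile scaling and 579 after median centring. Atp6v1c1 had levels of 9.16, 9.41 and 9.47 in MYC TAMs, above the 8.22 and 8.46 of MYC MTMs (1.00 ± 0.19, 2.01-fold, adjusted p = 0.0183). Atp6v1g1, at 8.56, 8.41 and 7.80 in MYC TAMs, had 7.51 and 7.22 in MYC MTMs (0.89 ± 0.22, adjusted p = 0.0595). Atp6v1f, at 7.60, 7.25 and 7.04 in MYC TAMs, had 6.63 and 6.53 in MYC MTMs (0.72 ± 0.18, adjusted p = 0.0605). Neither gene's groups overlapped. In the head, Atp6v1b2 was at 5.92 and 6.78 in MYC MTMs (0.96 ± 0.28, adjusted p = 0.101) and Atp6v1a at 6.43 and 6.61 in MYC MTMs (0.47 ± 0.23, adjusted p = 0.350). Atp6v1e1 was at 8.34 and 8.49 in MYC MTMs (0.66 ± 0.31, adjusted p = 0.324). These 6 subunits lay wholly higher in MYC TAMs, where 6.82% of all genes did and 23.5% lay wholly lower. Atp6v1d (7.56 and 7.52 in MYC MTMs) and Atp6v1h (7.72 in both) overlapped, with differences of 0.33 ± 0.24 and 0.21 ± 0.22.

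The labels pair TAMs and MTMs by mouse, and with the mouse in the model more subunits passed in MYC tumours. As a fixed block it gave 2, Atp6v1c1 (adjusted p = 0.0391) and Atp6v1g1 (adjusted p = 0.0285), and as a random block 3, with Atp6v1f added (adjusted p = 0.0387). Mouse 6 has no MTM library, so the fixed block also takes its TAM library out of this difference. That library had the lowest Atp6v1g1 level of the MYC TAMs (7.80), and its part in the gain was not tested. Of all genes 476 passed with the fixed block and 972 with the random block, against 784 without a block. The count of subunits also rests on single libraries. Without MYC MTM mouse 2 or 4 no subunit passed (Atp6v1c1 adjusted p = 0.200 and 0.0845), and without MYC TAM mouse 6 there were 3. Cell type markers differed here too, where 0.664% of all genes were higher and 3.82% lower in MYC TAMs. Of 12 macrophage markers 1 was higher and 4 were lower. Lower were also 2 of 16 epithelial, 1 of 11 T and NK, 2 of 6 B and plasma and 2 of 8 dendritic markers. Of 6 neutrophil markers 1 was higher. The part of these cells in the V1 values was not tested. The epithelial markers summed to 65.7 to 441 in MYC TAMs and 436 to 475 in MYC MTMs. With their level as a covariate Atp6v1c1 did not pass (0.87, adjusted p = 0.0662) while Atp6v1f (0.98, adjusted p = 0.0231) and Atp6v1g1 (1.24, adjusted p = 0.0183) did. Of all genes 726 passed with this covariate.

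In control tumours the populations did not differ detectably in V1 RNA. None of the 8 subunits passed (limma, 0 of 8 also at an unadjusted p below 0.05), where 2.37% of all genes did, 0.744% higher and 1.63% lower. Control TAMs minus control MTMs ran from -0.21 for Atp6v1g1 to 0.03 for Atp6v1b2, with standard errors of 0.16 to 0.27 and a median of -0.09 against -0.0038 over all genes. The libraries of both populations overlapped for all 8 subunits, where 6.9% of all genes lay wholly higher and 12% wholly lower in control TAMs. Atp6v1c1, for example, was at 7.41, 7.53 and 7.85 in control TAMs and 7.57, 7.71 and 7.89 in control MTMs, and Atp6v1g1 at 6.75, 6.80 and 6.86 in control TAMs and 6.84, 7.17 and 7.02 in control MTMs. The smallest adjusted p was 0.884, for Atp6v1g1. The signs of these small differences changed with scaling and with single libraries, as given under the processing alternatives.

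Among MTMs, the genotypes were compared with 2 MYC libraries and 3 control libraries, and no subunit passed (limma; 2 of 8 at an unadjusted p below 0.05, Atp6v1a and Atp6v1c1), where 0.618% of all genes did, 0.338% higher and 0.28% lower. Atp6v1a was at 6.43 and 6.61 in MYC MTMs and 5.47, 5.71 and 6.01 in control MTMs (0.79 ± 0.23, adjusted p = 0.210). Atp6v1c1 was at 8.22 and 8.46 in MYC MTMs and 7.57, 7.71 and 7.89 in control MTMs (0.62 ± 0.19, adjusted p = 0.242). Both were also among the 6 called in TAMs, and there the differences were 1.31 and 1.75. Atp6v1g1 (0.35 ± 0.22) and Atp6v1h (0.34 ± 0.22) also had their MYC MTM libraries wholly higher, which makes 4 of 8, where 11.1% of all genes lay wholly higher and 20.1% wholly lower. Atp6v1e1 differed by 0.27 ± 0.31, Atp6v1f by 0.18 ± 0.18, Atp6v1b2 by -0.05 ± 0.28 and Atp6v1d by -0.13 ± 0.24, all with overlap. The control MTM values of these 4 were 7.86, 8.50 and 8.08 for Atp6v1e1, 6.23, 6.60 and 6.37 for Atp6v1f, 6.13, 6.59 and 6.46 for Atp6v1b2 and 7.38, 7.90 and 7.73 for Atp6v1d. Control MTMs had 7.19, 7.66 and 7.28 for Atp6v1h. The median was 0.31 against -0.02 over all genes. MYC MTMs also had 1 of 16 epithelial and 1 of 8 dendritic markers lower. Epithelial sums were 436 to 475 in MYC MTMs and 604 to 1208 in control MTMs. None of 11 T and NK markers passed, but their sums were 5.55 to 20.9 in MYC MTMs and 44.5 to 55.1 in control MTMs. A part of these cells in the values was not tested.

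**Figure D4:**
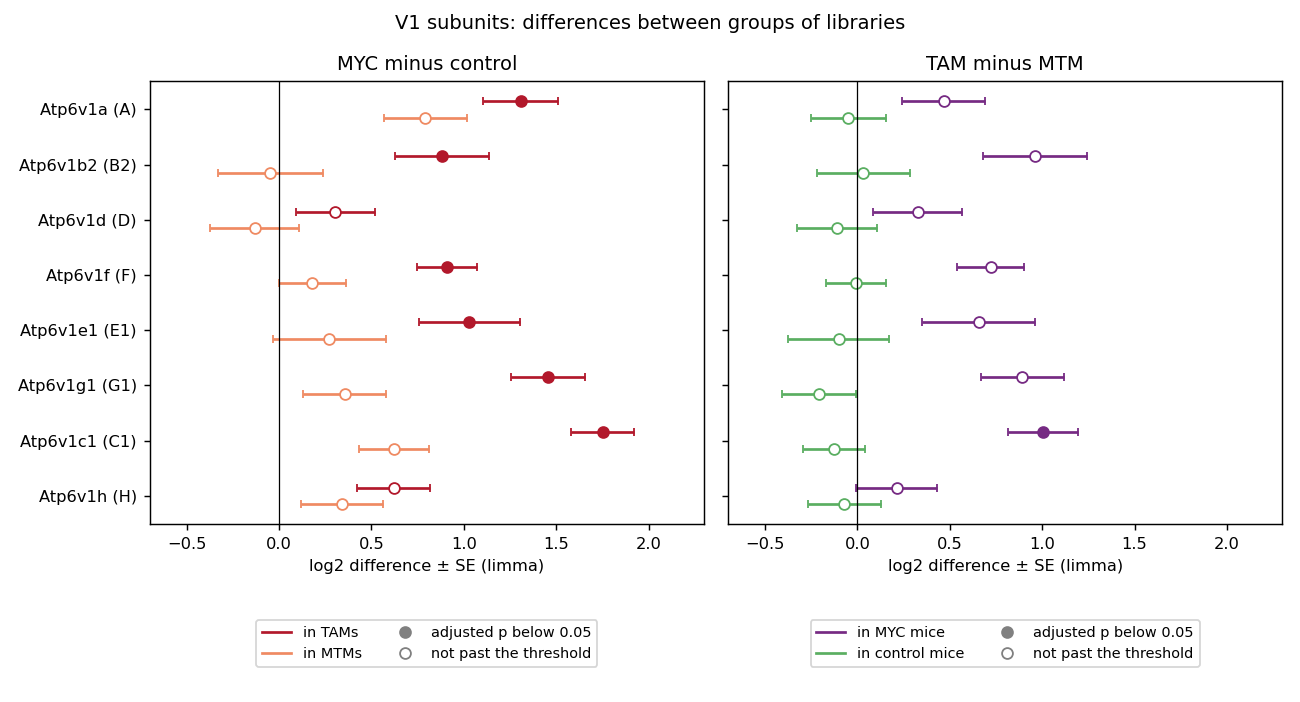
Log2 difference ± SE (horizontal axis, limma) of each V1 subunit (vertical axis) between MYC and control mice in TAMs and in MTMs (left) and between TAMs and MTMs in MYC and in control mice (right), with filled points for an adjusted p below 0.05. Filled points are 6 in TAMs by genotype and 1 in MYC mice by population (Atp6v1c1, 1.00), and the differences in control mice sit near 0.

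Whether the TAM minus MTM difference itself depends on genotype was tested as the difference of the differences, and no subunit passed (limma; 4 of 8 at an unadjusted p below 0.05), where 1.24% of all genes did, 0.24% higher and 0.996% lower. All 8 values were positive, with a median of 0.74 against 0.01 over all genes. The 4 with an unadjusted p below 0.05 were Atp6v1c1 (1.13 ± 0.25, adjusted p = 0.0765), Atp6v1g1 (1.10 ± 0.30, adjusted p = 0.149), Atp6v1b2 (0.93 ± 0.38, adjusted p = 0.393) and Atp6v1f (0.73 ± 0.24, adjusted p = 0.259), while Atp6v1e1 differed by 0.76 ± 0.41 (adjusted p = 0.588). With the mouse as a random block Atp6v1c1 passed (1.12, adjusted p = 0.0457), and without MYC TAM mouse 6 Atp6v1g1 did (1.33, adjusted p = 0.0221). Set mouse by mouse, TAM minus MTM for Atp6v1c1 was 0.94 in both MYC mice with both populations and -0.18 to -0.03 in the 3 control mice. For Atp6v1g1 it was 1.05 and 1.19 in the MYC mice and -0.36 to -0.10 in the control mice. For Atp6v1a it was 0.26 and 0.39 in the MYC mice and -0.10 to -0.01 in the control mice. These 3 subunits had opposite signs in the genotypes in every mouse, and the other 5 did not.

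The rest of the pump and its lysosomal partners gave mixed results in MYC TAMs, as the plot of the gene lists shows, and the counts are to be read beside the 15.9% of all genes called there (3.89% higher, 12% lower). Of 10 V0 genes 2 rose and 1 fell (median 0.09). The 2 that rose were Atp6v0d2, a d subunit of the rotor's membrane side known from osteoclasts (8.56 ± 0.32, adjusted p = 1.33e-06), and Atp6v0e, a small membrane subunit (0.78 ± 0.16, adjusted p = 0.00928). Atp6v0d2 had levels of 9.60, 9.94 and 9.89 in MYC TAMs and 1.01, 1.00 and 1.75 in control TAMs, a far wider gap than that of any V1 subunit. Of 7 genes typical of osteoclasts, where Atp6v0d2 is known to be abundant, Ctsk was higher (6.46 ± 0.63, adjusted p = 0.000187) and 4 were lower in MYC TAMs (Acp5, Dcstamp, Ocstamp and Nfatc1), with sums of 256 to 441 in MYC TAMs and 347 to 527 in control TAMs. Atp6v0a2, one of the large a subunits, fell (-1.71 ± 0.21, adjusted p = 0.000726), with 4.11, 4.48 and 4.87 in MYC TAMs and 5.96, 6.41 and 6.20 in control TAMs. Of 9 accessory and assembly genes 1 rose and 1 fell (median 0.25). Dmxl2, which encodes a rabconnectin of the assembly machinery that brings V1 to V0, rose (1.02 ± 0.30, adjusted p = 0.0491), and Rogdi, which encodes a partner in that machinery, fell (-2.98 ± 0.16, adjusted p = 8.03e-06). Rogdi had levels of 4.67, 4.40 and 4.85 in MYC TAMs and 7.73, 7.62 and 7.51 in control TAMs.

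Of 5 Ragulator genes 2 rose (median 0.34), namely Lamtor1, the lipid anchor of the complex (0.56 ± 0.15, adjusted p = 0.0293), and the scaffold Lamtor3 (1.06 ± 0.22, adjusted p = 0.00983). Of 9 genes of lysosomal and endosomal ion transport 1 rose and 2 fell (median 0.27). Mcoln1, the lysosomal calcium channel, rose (1.39 ± 0.32, adjusted p = 0.0155), while Clcn3, a chloride-proton exchanger (-0.89 ± 0.20, adjusted p = 0.0147), and Slc9a9, an endosomal sodium-proton exchanger (-2.05 ± 0.20, adjusted p = 0.000186), fell. None of the 5 TLDc genes (median 0.13), whose proteins bind V1, and none of the 4 MiT/TFE factors (median 0.07), which switch on lysosomal genes, passed (limma, 0 of 5 and 0 of 4 also at an unadjusted p below 0.05).

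**Figure D5:**
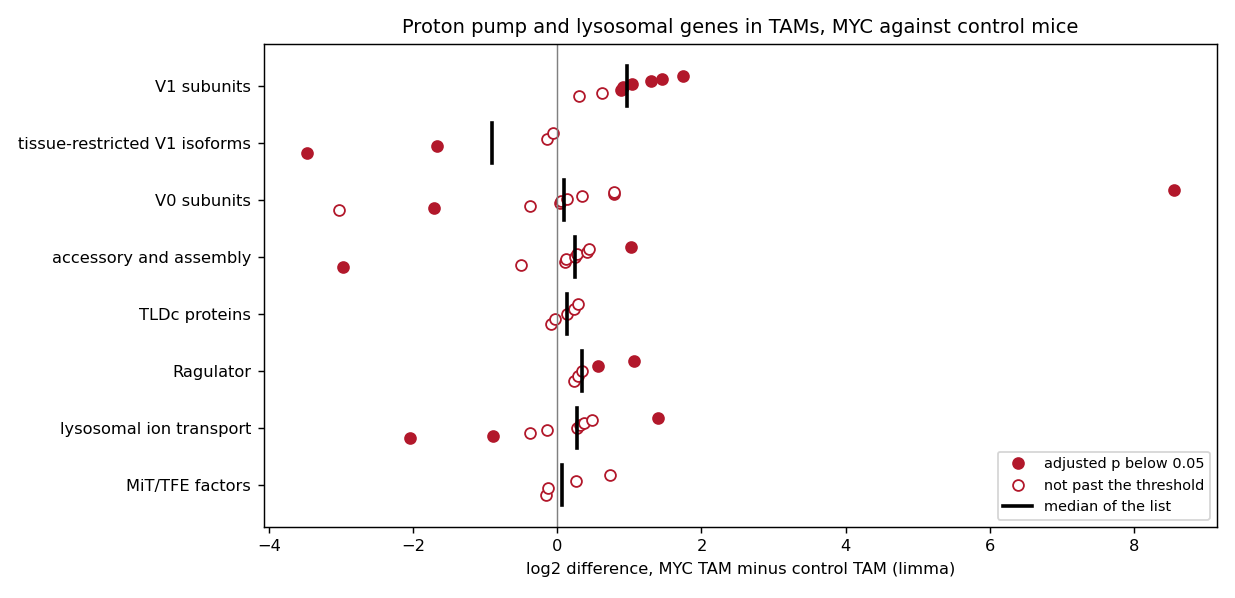
Log2 difference between MYC TAMs and control TAMs (horizontal axis, limma) for each measured gene of 8 lists (vertical axis), filled where the adjusted p was below 0.05, with the list median as a black bar. The V1 points all lie to the right of 0 with a median of 0.97, while Atp6v0d2 (8.56) stands far to the right of all other genes shown.

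In the other comparisons the same lists held the following calls. Between MYC TAMs and MYC MTMs, where 4.49% of all genes passed, Atp6v0d2 was higher (1.56 ± 0.35, adjusted p = 0.0390) and the ion transport genes Slc9a9 (-2.14 ± 0.22, adjusted p = 0.00110), Tpcn1 (-1.11 ± 0.21, adjusted p = 0.0204) and Clcn5 (-0.92 ± 0.20, adjusted p = 0.0346) were lower in TAMs. Between control TAMs and control MTMs, where 2.37% of all genes passed, Atp6v0d2 was lower in TAMs (-2.38 ± 0.32, adjusted p = 0.00387) and Rogdi higher (0.99 ± 0.16, adjusted p = 0.0114). Between MYC MTMs and control MTMs, where 0.618% of all genes passed, Atp6v0d2 was higher (4.62 ± 0.35, adjusted p = 0.00123) and Rogdi lower (-1.28 ± 0.18, adjusted p = 0.0163) in MYC MTMs.

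The genes whose profile over the 11 libraries was most like the mean profile of the 8 subunits were found by the root mean square of their log2 difference after centring, among 8743 genes with a mean level of at least 1, unnamed gene models left out. The nearest were Atg12, a ubiquitin-like protein of autophagosome formation (0.111), Lyrm5 (0.151), Igsf6 (0.173), Amdhd2, an enzyme of amino sugar breakdown (0.176), and Cd84, a receptor of the SLAM family (0.184). Stam, an endosomal sorting adaptor (0.185), Gch1, the first enzyme of tetrahydrobiopterin synthesis (0.186), Acot13, a thioesterase (0.186), Mob2 (0.190) and Nicn1 (0.198) followed. The subunits themselves lay at 0.199 (Atp6v1e1 and Atp6v1f), 0.215 (Atp6v1h), 0.228 (Atp6v1a), 0.267 (Atp6v1b2), 0.299 (Atp6v1g1), 0.315 (Atp6v1c1) and 0.343 (Atp6v1d) from their own mean, so these 10 genes were closer to it than any member. Of the listed partners, Atp6v0e came at rank 28 (0.223), Lamtor3 at rank 33 (0.228) and Atp6v0d1, the other d subunit of V0, at rank 127 (0.286). Atp6v0d2 came at rank 8737 (3.15).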

How the data were processed

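Messenger RNA of 11 libraries was sequenced, each a sorted population of 1 mouse, and the number in a library's label is its mouse. Per the labels' protocols, 500 ng of RNA per library was poly-A selected, made into stranded libraries and amplified over 8 cycles. Per the submitters' processing notes, HISAT2, mm10 (GRCm38.p5) and DESeq2 were used, with no role given. The authors deposited log2 values of 17475 genes. Their formula is not stated. It was inferred from the values: all of 11928 low values were whole reads within a tolerance of 0.05 read, which gave relative depths and, with GENCODE M21 exon lengths (found for 93.0% of genes), the estimated reads. In the name column 26 entries read as dates or numbers and 68 rows shared a symbol, and all were tested.

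A mean for each of 4 groups was fitted to the deposited values with limma 3.58.1 (R 4.3.3), with moderated variances following a trend, two-sided tests and Benjamini-Hochberg adjustment over 17475 genes, for 5 comparisons. Folds are 2 to the power of the differences. Comparisons that share a group are not independent. The fit was checked on simulated data. Python 3.11.15, numpy 2.4.6, pandas 2.3.3 and matplotlib 3.10.9 served the rest. Shares and sums undo the logarithm.

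The labels tie TAMs and MTMs to the same mice. Deviations of same-mouse libraries correlated across genes at 0.0779 to 0.211 in control mice and 0.0379 and 0.0983 in MYC mice, and limma estimated 0.127. Replicates were not copies of each other, since pairs differed with an SD of 0.369 to 0.815 (log2) over 1729 genes with a mean of at least 5.

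The members and lists were chosen with earlier results of these data known. All 8 subunits are named, with up to 4 called genes per list and the 10 most alike; Clcn5, Ctsk and the osteoclast genes beside it were named after their values were seen. Adgre1 was matched as Emr1 and Jchain as Igj, while Atp6v1e2, Cldn3, Cldn4, Ly6g, Camp and Cldn5 were not matched in the table. The alternatives were quantile or median scaling, mouse blocks, fewer libraries, a pseudocount of 0.1, a minimum mean of 1, no variance trend, library weights and an epithelial covariate. Genome sequence was used only as the RefSeq promoter windows, and no protein sequence was used here.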

Additional observations from a re-analysis of the deposited data

Results flagged for a closer look

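For 3 partner genes of the V1 sector the TAM minus MTM difference was not the same in MYC and control mice (limma, difference of differences, adjusted over all genes). No V1 subunit passed that test. Atp6v0d2, a V0 subunit, was higher in TAMs than in MTMs of MYC mice and lower in control mice, and the differences were 3.93 ± 0.47 apart (adjusted p = 0.00882). In MYC mice the values were 9.60, 9.94 and 9.89 in TAMs and 7.86 and 8.65 in MTMs, and in control mice 1.01, 1.00 and 1.75 in TAMs and 3.94, 3.03 and 3.92 in MTMs. For Rogdi, of the pump's assembly machinery, the value was -1.70 ± 0.24 (adjusted p = 0.0144), with MYC TAMs at 4.40 to 4.85, MYC MTMs at 5.48 and 5.23, control TAMs at 7.51 to 7.73 and control MTMs at 6.46 to 6.85. For Slc9a9, an endosomal exchanger, it was -1.85 ± 0.30 (adjusted p = 0.0216), with MYC TAMs at 2.69 to 3.27, MYC MTMs at 5.15 and 5.00, control TAMs at 4.72 to 5.18 and control MTMs at 5.07 to 5.54. Groups of 2 and 3 libraries are too small for the check for single outlying samples.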

How the results depend on the processing

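Of 21 alternatives, 11 left out 1 library each. The alternatives also changed the number of all genes called. It ran from 903 to 5029 between MYC and control TAMs. In TAMs minus MTMs of MYC mice it ran from 90 to 1031. Between MYC and control TAMs, where 6 subunits passed, 3 did with the epithelial covariate and 4 to 6 without single libraries, and 6 did with the mouse as a random block. Over the 20 alternatives that apply there, Atp6v1c1, Atp6v1f and Atp6v1g1 passed in 20, Atp6v1a in 19, Atp6v1e1 in 10, Atp6v1b2 in 8, Atp6v1h in 3 and Atp6v1d in 0. In TAMs minus MTMs of MYC mice, where 1 passed, 2 did after quantile scaling, median centring, the fixed mouse block or the covariate, 3 with the random block, a minimum mean of 1, no trend or library weights, 0 with only the compared groups, and 0 to 3 without single libraries. There Atp6v1c1 passed in 16 of 21 (adjusted p 0.00934 to 0.200). For the difference of differences, where 0 passed, 1 did after quantile scaling, with the random block, a minimum mean of 1 or no trend, and 0 to 1 without single libraries. The other comparisons stayed at 0 under every alternative, blocks included. A fixed mouse block could not be fitted between genotypes, since a mouse has 1 genotype.

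Among these settings, signs turned only in the following differences. Control TAMs minus MTMs became 0.0286 (median centring) and 0.0132 (covariate) for Atp6v1a; 0.0866 (quantile), 0.0714 (median) and 0.0488 (weights) for Atp6v1f; and 0.0397, 0.00702 and 0.0233 under these 3 for Atp6v1h. Without single libraries they ran from -0.21 to 0.0914 for Atp6v1a, -0.10 to 0.15 for Atp6v1b2, -0.26 to 0.0046 for Atp6v1d, -0.24 to 0.0752 for Atp6v1e1, -0.0905 to 0.0939 for Atp6v1f and -0.16 to 0.0721 for Atp6v1h. Atp6v1d between TAM genotypes became -0.0699 with the covariate, and Atp6v1b2 between MTM genotypes became 0.0701 after median centring and ran from -0.48 to 0.39 without single libraries. The causes were not tested.

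Median centring moved the median of all genes to 0.19 between MYC and control TAMs and to 0.15 in TAMs minus MTMs of MYC mice. Atp6v1h passed between TAM genotypes after median centring (0.83, adjusted p = 0.0262), where 5029 of all genes did. Precision is limited by 2 or 3 mice per group and not by depth.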

Other observations

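Atp6v0c, the proteolipid that lines the rotor ring of V0, fell into separate levels within groups. It was at 7.72, 0.71 and 1.37 in MYC TAMs (mice 2, 4 and 6), 6.22, 6.27 and 6.42 in control TAMs (mice 1, 3 and 5), 6.80 and 6.93 in MYC MTMs (mice 2 and 4) and 6.17, 0.67 and 0.98 in control MTMs (mice 1, 3 and 5). No comparison of it passed. The V1 subunits of the same libraries showed no such split, for Atp6v1f, for example, 7.60, 7.25 and 7.04 in MYC TAMs and 6.23, 6.60 and 6.37 in control MTMs. Atp6v0c reads may be shared with near-identical copies, and how the authors counted such reads is not given in the sources used here, so its values are uncertain.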
